A study of Mus musculus with 18 samples.

Results

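The genes described here are the extracellular and cell-surface part of the mouse Wnt pathway: the Wnt ligands, the Frizzled receptors, their co-receptors and alternative receptors, the R-spondins with their receptors, and the secreted Wnt inhibitors, together with Axin2. They were picked by gene symbol, which gave 52 of the 21647 genes in the count table, and the rule uses no measured value. The cells are labelled as embryonic aortic endothelial cells of the mouse, cultured on gelatin. Tg737orpk/orpk cells (orpk below) carry an insertion in Ift88, whose protein moves cargo along the primary cilium, and wild-type (WT) cells do not. Cells of each genotype were starved of serum for 24 h and then kept static or exposed to laminar flow for 48 h at a wall shear of 2 or 30 dyn/cm². The 6 groups are thus orpk static, orpk at 2, orpk at 30, WT static, WT at 2 and WT at 30 dyn/cm², with 3 libraries each, and the comparisons show how Wnt gene expression differs with the mutation, with shear and with both. No label says whether the libraries of a group come from separate cultures or animals, so a p-value is set against the scatter of these libraries alone, and that scatter could be technical. The labels name no second isolate of either genotype, so the effect of the mutation and the difference between cell isolates cannot be told apart.

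Several facts about all libraries bear on what follows. Ift88 was lower in orpk, with 6.37 to 8.46 CPM in the 9 orpk libraries against 12.8 to 17.4 CPM in the 9 WT libraries (-0.99 ± 0.10 on the log2 scale in static culture, edgeR adjusted p = 5.61e-12). CPM are counts brought to a common library size with TMM scaling, and library totals ran from 13626480 to 17387553 counts. Defining markers of the labelled cell type were low: of 12 listed endothelial markers 9 had enough reads to test, and the summed level of the list was 17.4 to 22.7 CPM in orpk and 11.1 to 14.2 CPM in WT. Cdh5, Tie1 and Erg had 0 reads in WT, and Cldn5 had 0 reads in orpk. All 10 fibroblast markers were higher in orpk in static culture (summed level 25880 to 40825 CPM in orpk, 716 to 1155 CPM in WT), and so were all 6 tested markers of smooth muscle and pericytes (summed level 1507 to 4431 and 51.9 to 134 CPM). Those of the nephron lineage summed to 82.2 to 136 CPM in orpk and 1081 to 1832 CPM in WT, with 6 of the 7 tested ones lower in orpk, and epithelial and mesothelial markers to 158 to 302 and 357 to 576 CPM. In static culture 2 of the 9 tested epithelial and mesothelial markers were higher and 7 lower in orpk. Macrophage and leukocyte markers summed to 8.76 to 18.3 CPM in orpk and 11.9 to 50.1 CPM in WT. Of the 3 tested, 2 were higher and 1 lower in static orpk. Csf1r alone held 0.86 to 6.2 CPM in orpk and 8.38 to 46.5 CPM in WT. The part these cell-type differences play in the Wnt gene differences was not tested, and in bulk samples fewer cells of a type and less RNA per cell cannot be told apart. A pair of libraries stood apart from the others of their groups: orpk replicate 2 at 2 dyn/cm² (chi-square divided by its degrees of freedom was 3.28 and 3.66 against its fellows and 1.55 between those) and WT replicate 1 at 2 dyn/cm² (6.10 and 7.43, against 1.42).

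Wnts are secreted lipid-modified glycoproteins that bind Frizzled receptors. Together with the co-receptors Lrp5 and Lrp6 they stop the destruction of β-catenin, which then enters the nucleus and acts with TCF and LEF factors on target genes such as Axin2. Other Wnts act without β-catenin, through Ror and Ryk receptors, on cell polarity and movement. R-spondins bind Lgr receptors and keep Frizzleds at the cell surface, while Dickkopf proteins, secreted Frizzled-related proteins, Wif1 and Notum limit ligand or receptor outside the cell. In blood vessels the pathway is known for its part in vessel growth and in the maturation of the blood-brain and blood-retina barriers.

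Promoter stretches of 3 members are given here, chosen for their contrasting courses with flow: Wnt9a, a ligand that rose at high shear in orpk cells, Dkk2, an inhibitor that fell with flow there, and Axin2, the feedback target that rose with flow in WT cells. Each is the 250 bases before the start that RefSeq annotates on GRCm38.p6, read 5′ to 3′ on the plus strand, at chr11:59306680-59306929, chr3:132085042-132085291 and chr11:108920099-108920348. Capitals mark the letters TATAA.
Wnt9a: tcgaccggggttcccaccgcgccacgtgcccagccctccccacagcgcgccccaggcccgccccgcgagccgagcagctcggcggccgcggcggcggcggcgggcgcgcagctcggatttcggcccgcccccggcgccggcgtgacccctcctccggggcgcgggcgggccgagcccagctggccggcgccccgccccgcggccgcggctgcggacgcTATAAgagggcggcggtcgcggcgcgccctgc
Dkk2: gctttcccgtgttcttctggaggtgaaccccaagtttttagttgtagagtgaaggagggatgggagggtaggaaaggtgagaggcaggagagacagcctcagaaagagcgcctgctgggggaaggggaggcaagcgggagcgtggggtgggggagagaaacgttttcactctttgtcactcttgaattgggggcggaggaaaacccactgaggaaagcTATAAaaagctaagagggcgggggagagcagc
Axin2: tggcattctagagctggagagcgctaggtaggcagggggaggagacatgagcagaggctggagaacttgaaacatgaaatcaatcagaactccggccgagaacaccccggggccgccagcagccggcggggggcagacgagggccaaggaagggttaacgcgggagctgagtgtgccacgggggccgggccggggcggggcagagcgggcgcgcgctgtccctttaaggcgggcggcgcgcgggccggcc
In Wnt9a and Dkk2 the letters TATAA begin 32 bases before the start, and Axin2 has no such match. The Wnt9a stretch is 84.4% G and C with 48 CpG, the Dkk2 stretch 55.6% with 7 CpG and the Axin2 stretch 69.2% with 24 CpG. A window of 300 bases around the start (250 before, 50 after) was on hand for 34 of the 52 members, 37 windows in all. TATAA on the sense strand was in 5 of these 37 (13.5%), against 17.5% of all 32851 windows. The letters bound by TCF and LEF factors, searched as CTTTGA or CTTTGT with an A or a T after them and on both strands, were in 5 of the 37 (13.5%: Dkk1, Fzd7, Wnt11, Wnt3 and Wnt5b), against 16.9% of all windows, and none of these strings contains another. Both shares lay near those of all windows, and the letters describe the windows without showing that a factor binds there.

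Of the 52 members, 32 had enough reads to be tested among 13058 genes: 9 of 19 ligands, 9 of 10 Frizzleds, all 5 co-receptors and alternative receptors, 3 of 4 R-spondins, 1 of 2 R-spondin receptors, 4 of 11 secreted inhibitors and Axin2. The level the filter asks for was reached in both genotypes by 16 members, in orpk alone by 9 (Wnt5a, Fzd8, Ror1, Ror2, Rspo1, Rspo2, Rspo3, Dkk2 and Sfrp2) and in WT alone by 6 (Wnt4, Wnt6, Wnt7b, Wnt10a, Fzd9 and Notum). Wnt2b, a ligand of lung specification, met the filter with libraries of both genotypes, but in no group with all 3. Members that passed in 1 genotype only had to differ between the genotypes, so counts over the 32 describe the table and nothing more. The 20 members below the filter had 0 to 65 reads in all 18 libraries together and a group mean of at most 0.594 CPM. Wnt3a and Wnt8a had 0 reads, and Fzd10, Dkk1 and Dkk4 had 1 read each.

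**Figure D1:**
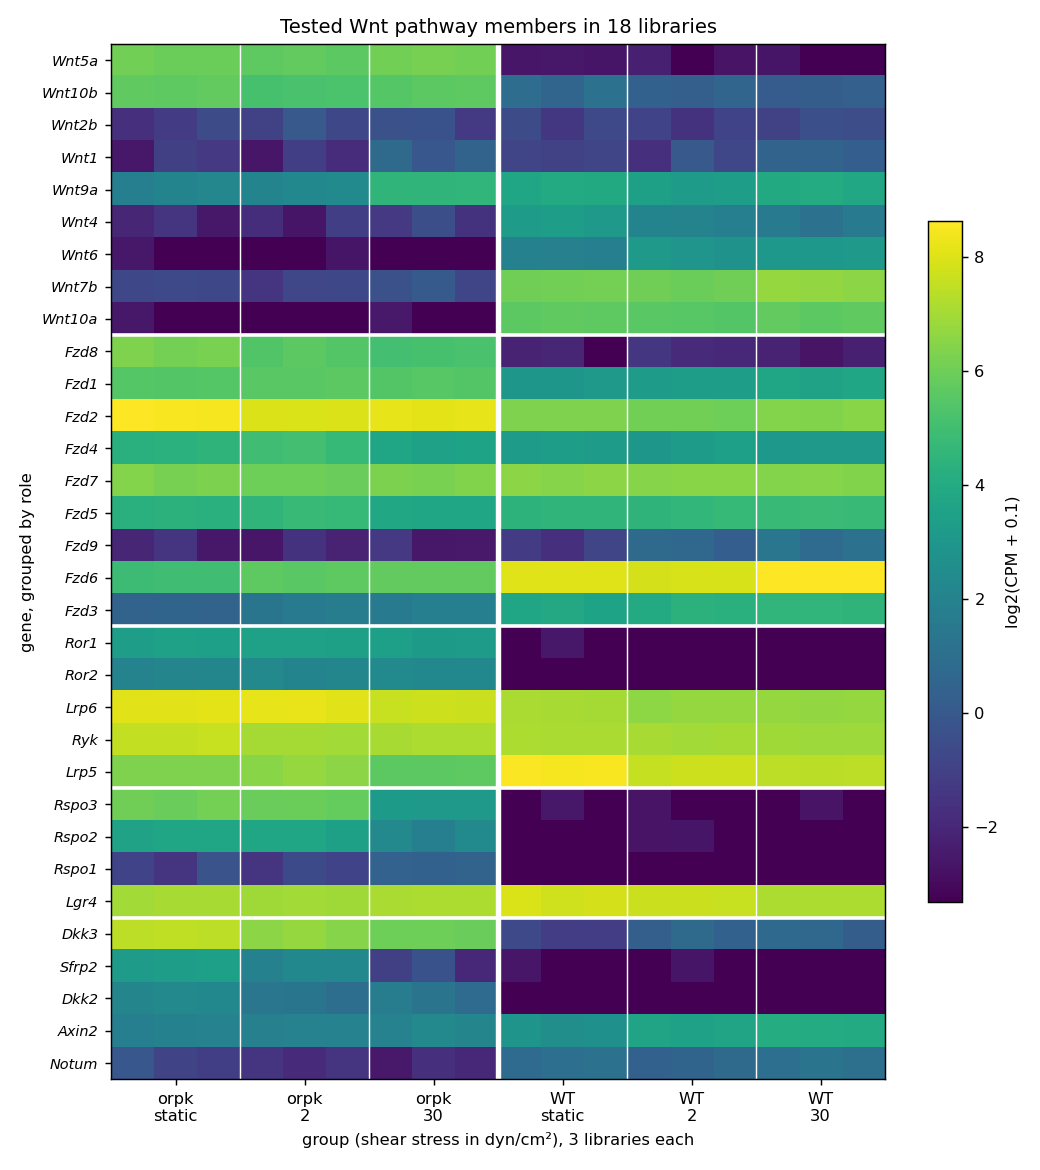
Heat map of log2(CPM + 0.1) for the 32 tested members (rows, from the top: ligands, Frizzleds, other receptors, R-spondins with Lgr4, inhibitors with Axin2) in the 18 libraries (columns, orpk left of WT, each from static to 30 dyn/cm²). Rows that are dark in 1 genotype only are mostly the members that reached the filter level in the other, 9 in orpk and 6 in WT.

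Between the genotypes nearly every tested member differed, as did most genes. In static culture 29 of 32 passed (edgeR quasi-likelihood test, Benjamini-Hochberg adjusted p under 0.05 over all tested genes), 16 higher and 13 lower in orpk, where 87.8% of all tested genes passed, 44.4% higher and 43.4% lower. At 2 dyn/cm² 29 passed, 15 higher and 14 lower (87.5% of all genes, 44.6% higher and 42.9% lower). At 30 dyn/cm² 29 passed, 17 higher and 12 lower (86.9% of all genes, 44.9% higher and 42.0% lower). These shares lie near those of all genes. With a difference of at least 1 on the log2 scale, that is 2-fold, 24, 27 and 24 of 32 passed at static, 2 and 30 dyn/cm² (40.3%, 37.2% and 39.1% of all genes). The 9 members at the filter level in orpk alone and the 6 in WT alone had to differ. These counts therefore describe the table and are not read as an excess. Among the 16 members at the filter level in both genotypes, 7 were higher and 8 lower in orpk in static culture, 6 and 8 at 2 dyn/cm², and 8 and 6 at 30 dyn/cm². Scaled by library totals instead of TMM, the median of all genes moved by -0.22 on the log2 scale in static culture, -0.22 at 2 and -0.31 at 30 dyn/cm², so differences are relative to the median gene.

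With flow, fewer members passed. Of the 32, 8 had at most 3 reads in each WT group and gave no fold with flow there. In orpk this held for 2. The members with a fold were thus 24 in WT and 30 in orpk, and the counts out of 32 below include those without. In orpk, 18 of 32 passed at 2 dyn/cm² against static, 6 higher and 12 lower (62.0% of all genes, 30.9% higher and 31.1% lower). At 30 dyn/cm² against static, 21 passed in orpk, 7 higher and 14 lower (69.9% of all genes, 36.5% higher and 33.3% lower). For 30 against 2 dyn/cm² in orpk 20 passed, 10 in each direction (63.6% of all genes, 32.1% higher and 31.5% lower), and with library totals as the scaling 17 passed, 6 higher and 11 lower. These counts include the 9 members that reached the filter level in orpk alone, some of them not at every shear. The balance of rises and falls in orpk thus describes the table and nothing more. In WT, 16 of 32 passed at 2 dyn/cm² against static, 6 higher and 10 lower (62.9% of all genes, 32.6% higher and 30.3% lower), and with library totals as the scaling 13 passed, 7 higher and 6 lower. At 30 dyn/cm² against static, 16 passed in WT, 10 higher and 6 lower (66.9% of all genes, 34.1% higher and 32.7% lower). For 30 against 2 dyn/cm² in WT 15 passed, 12 higher and 3 lower (33.1% of all genes, 15.9% higher and 17.2% lower), and DESeq2 called 10, of which 8 were higher. The rises of Fzd5, Fzd9, Wnt1, Wnt10a and Notum in this comparison were each lost when 1 or another library was left out. The WT counts include the 6 members that reached the filter level in WT alone, Fzd9 not in static culture. The balance of rises and falls in WT thus also describes the table and nothing more. Among the 16 measured in both genotypes, the counts at 30 dyn/cm² against static were 5 higher and 8 lower in orpk, and 7 higher and 5 lower in WT. Of these 16, Wnt1 reached the filter level only at 30 dyn/cm², and Dkk3 reached it in WT only under flow. The rises of Wnt1 in both genotypes and of Dkk3 in WT are thus not independent of the filter.

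The ligand genes differed in kind between the genotypes. Wnt10b and Wnt5a led in orpk, and Wnt10a and Wnt7b in WT. Per kilobase of exon the 19 ligands summed to 25.4 ± 0.66 CPM per kb in static orpk, 19.1 ± 0.665 at 2 and 30.9 ± 1.01 at 30 dyn/cm² (SD, n = 3 here and in every group), against 44 ± 1.07, 40.2 ± 1.14 and 51.8 ± 1.75 in WT. Of that sum Wnt10b made up 61% ± 0.63 in static orpk, 55.5% ± 1.45 at 2 and 45.3% ± 1.17 at 30 dyn/cm², and Wnt5a 32.3% ± 1.62, 34.5% ± 1.33 and 28.9% ± 1.0. In WT, Wnt10a made up 46.9% ± 0.881 in static culture, 46.1% ± 1.42 at 2 and 40.4% ± 1.69 at 30 dyn/cm², and Wnt7b 31.6% ± 0.689, 32.9% ± 1.44 and 40.0% ± 1.66. No gene leads the ligands in both genotypes. The order of Wnt10a and Wnt7b in WT depends on the length used. Wnt7b has 4898 bases of merged exons but 3400 in its longest transcript, while Wnt10a has 2468 by either.

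**Figure D2:**
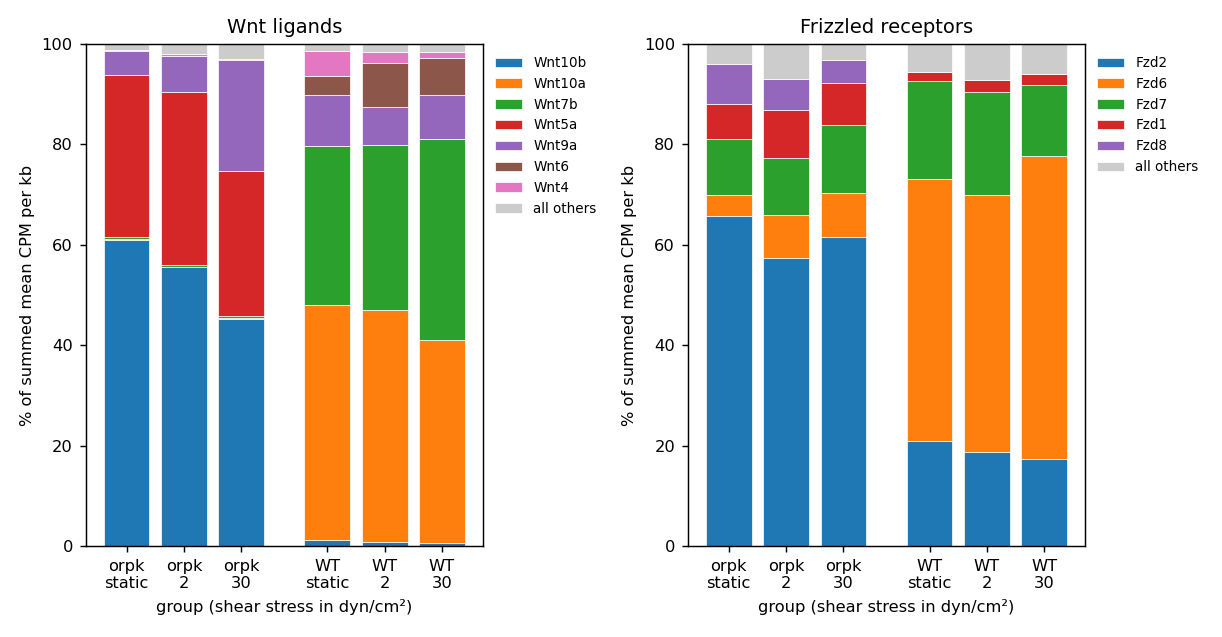
Stacked bars of the percent of the summed mean CPM per kb taken by each ligand (left) and each Frizzled (right) in the 6 groups, orpk left of WT. Wnt10b and Wnt5a fill most of the ligand bar in orpk and Wnt10a and Wnt7b in WT, and Fzd2 leads the Frizzleds in orpk and Fzd6 in WT.

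Wnt10b (ENSMUSG00000022996, GRCm38 chromosome 15, 98770712 to 98778150, minus strand) encodes a β-catenin ligand known for holding back fat cell formation and favouring bone. In orpk its libraries held 52.5, 51 and 54.5 CPM in static culture, 35, 36.1 and 37.4 CPM at 2 and 44.7, 48.4 and 49.9 CPM at 30 dyn/cm². Its WT libraries held 1.83, 1.4 and 2.13 CPM in static culture, 1.2, 1.14 and 1.41 CPM at 2 and 1.02, 1.05 and 1.16 CPM at 30 dyn/cm². Every orpk library was above every WT library, and on the log2 scale the orpk level over the WT level came to 4.86 ± 0.16 (± SE, as for every log2 fold change) in static culture, 4.84 ± 0.18 at 2 and 5.46 ± 0.20 at 30 dyn/cm² (edgeR adjusted p = 5.84e-36, 2.41e-34 and 2.81e-36). Within orpk, Wnt10b was lowest at 2 dyn/cm², -0.54 ± 0.06 against static and with no overlap of the libraries (edgeR adjusted p = 3.35e-11).

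Wnt5a (ENSMUSG00000021994, chromosome 14, 28504750 to 28527448, plus strand), the best known ligand of β-catenin-independent signalling, was present in orpk and near 0 in WT. The orpk libraries held 67.8, 62 and 62.6 CPM in static culture, 50.7, 54.2 and 49.9 CPM at 2 and 67.6, 73.2 and 68.5 CPM at 30 dyn/cm². The WT groups held 3, 3 and 1 reads in all, which put the ratio of orpk to WT at 1004-fold (95% exact counting interval 343 to 4872) in static culture, 921-fold (95% exact counting interval 315 to 4467) at 2 and 3691-fold (95% exact counting interval 662 to 145838) at 30 dyn/cm². Such intervals, and the floors of 3 reads used below where a group has no read, cover counting error only. Like Wnt10b, Wnt5a was lowest in orpk at 2 dyn/cm², -0.31 ± 0.05 against static (edgeR adjusted p = 2.63e-06), and higher by 0.44 ± 0.05 at 30 than at 2 dyn/cm² (edgeR adjusted p = 2.31e-09).

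Wnt10a (ENSMUSG00000026167, chromosome 1, 74791516 to 74804179, plus strand), a β-catenin ligand of teeth, hair and skin, showed the reverse pattern. The orpk groups held 1, 0 and 1 reads in static culture, at 2 and at 30 dyn/cm². In WT the libraries held 49.5, 53 and 50.3 CPM in static culture, 47.1, 46.7 and 43.5 CPM at 2 and 54.4, 48.6 and 52.2 CPM at 30 dyn/cm², a range that changed little with flow. The orpk level was lower 2196-fold (95% exact counting interval 394 to 86787) in static culture, at least 730.1-fold at 2 dyn/cm² against the floor of 3 reads over the group, and 2078-fold (95% exact counting interval 373 to 82121) at 30 dyn/cm². Wnt7b (ENSMUSG00000022382, chromosome 15, 85535437 to 85582473, minus strand), a ligand needed in lung and kidney medulla, held 0.499, 0.517 and 0.512 CPM in static culture, 0.265, 0.481 and 0.495 CPM at 2 and 0.674, 0.929 and 0.465 CPM at 30 dyn/cm² in orpk. WT libraries held 66.3, 68.1 and 70.0 CPM in static culture, 65.4, 62.2 and 66.6 CPM at 2 and 106, 104 and 94.7 CPM at 30 dyn/cm². The genotypes were far apart, with orpk over WT at -7.04 ± 0.31, -7.25 ± 0.32 and -7.17 ± 0.27 on the log2 scale at static, 2 and 30 dyn/cm² (edgeR adjusted p = 3.41e-38, 1.46e-38 and 3.10e-40). In WT the 3 libraries at 30 dyn/cm² stood above all others, and Wnt7b rose by 0.58 ± 0.05 at 30 dyn/cm² against static (edgeR adjusted p = 3.60e-14).

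A pair of further ligands was found in WT and moved with shear there, in opposite directions. Wnt6 (ENSMUSG00000033227, chromosome 1, 74771892 to 74785322, plus strand), an ectodermal and ureteric bud ligand, lies 6193 bases from Wnt10a on the same strand of chromosome 1, with no other gene of the table between them. Its orpk groups held 1, 1 and 0 reads, and its WT libraries held 3.66, 3.57 and 3.51 CPM in static culture, 8.48, 7.51 and 6.95 CPM at 2 and 8.09, 8.16 and 8.66 CPM at 30 dyn/cm². Both WT flow groups lay above the static one without overlap, at 1.10 ± 0.14 for 2 dyn/cm² and 1.21 ± 0.14 for 30 dyn/cm² against static (edgeR adjusted p = 3.70e-09 and 1.66e-10), while its neighbour Wnt10a had 0.02 ± 0.05 for 30 dyn/cm² (edgeR adjusted p = 0.763). Wnt4 (ENSMUSG00000036856, chromosome 4, 137277489 to 137299726, plus strand), the ligand that drives kidney mesenchyme into tubules, held 0.0601 to 0.643 CPM over the 9 orpk libraries. In WT there were 9.53, 9.87 and 8.79 CPM in static culture, 4.13, 3.96 and 3.47 CPM at 2 and 2.88, 2.16 and 2.87 CPM at 30 dyn/cm². It fell with flow in WT, at -1.28 ± 0.14 for 2 and -1.83 ± 0.15 for 30 dyn/cm² against static (edgeR adjusted p = 4.21e-11 and 1.29e-14). The WT groups did not overlap. Markers of the nephron lineage moved the same way in WT, summing to 1550 to 1832 CPM in static culture, 1207 to 1331 at 2 and 1081 to 1143 at 30 dyn/cm², with 5 of 7 tested lower at 2 and 6 of 7 lower at 30 dyn/cm² against static and 0 higher, and their part in the Wnt4 result was not tested.

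Wnt9a (ENSMUSG00000000126, chromosome 11, 59306928 to 59333552, plus strand), a ligand of joint formation, changed places between the genotypes with shear. In orpk it held 3.49, 4.07 and 4.47 CPM in static culture, 4.17, 4.75 and 4.95 CPM at 2 and 22.4, 22.4 and 23.5 CPM at 30 dyn/cm². The values in WT were 13.6, 15.7 and 15.3 CPM in static culture, 11, 9.19 and 10.2 CPM at 2 and 15.2, 16.1 and 14.5 CPM at 30 dyn/cm². The 3 orpk libraries at 30 dyn/cm² stood above all other libraries of either genotype, 5.66-fold over static orpk (2.50 ± 0.12 on the log2 scale, edgeR adjusted p = 1.27e-23). Markers of smooth muscle and pericytes rose with it in orpk, summing to 1507 to 1631 CPM in static culture, 2032 to 2252 at 2 and 4335 to 4431 at 30 dyn/cm², with 5 of 6 tested higher and 1 lower at 30 dyn/cm² against static, and their part in the Wnt9a result was not tested. Against WT, orpk was lower in static culture (-1.89 ± 0.12, edgeR adjusted p = 3.82e-19) and at 2 dyn/cm² (-1.13 ± 0.12, edgeR adjusted p = 3.26e-12), and higher at 30 dyn/cm² (0.57 ± 0.08, edgeR adjusted p = 9.35e-09). Within WT it was lowest at 2 dyn/cm² (-0.55 ± 0.09 against static, edgeR adjusted p = 8.26e-07). Its share of the ligand sum in orpk was 4.75% ± 0.553, 7.24% ± 0.438 and 22.1% ± 0.67 from static to 30 dyn/cm². The gene next to it, Wnt3a, 16175 bases away on the other strand, had no reads in any library. The stretch before the Wnt9a start, with TATAA at 32 bases, is among those shown above.

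Wnt1 (ENSMUSG00000022997, chromosome 15, 98789857 to 98793837, plus strand), the ligand of midbrain development, lies 11706 bases from Wnt10b and was low in both genotypes. Its orpk libraries held 0.0713, 0.388 and 0.293 CPM in static culture, 0.0661, 0.361 and 0.186 CPM at 2 and 1.65, 0.857 and 1.32 CPM at 30 dyn/cm². Those of WT held 0.457, 0.42 and 0.46 CPM in static culture, 0.217, 0.901 and 0.488 CPM at 2 and 1.32, 1.28 and 1.1 CPM at 30 dyn/cm². The highest values of both genotypes were those at 30 dyn/cm², which lay above static by 2.28 ± 0.53 in orpk and 1.45 ± 0.40 in WT (edgeR adjusted p = 2.69e-05 and 0.000770), and the groups did not overlap. Wnt1 reached the filter level only at 30 dyn/cm², so these rises are not independent of the filter. The changes in orpk and WT differed by 0.83 ± 0.67, short of the threshold (edgeR adjusted p = 0.276). Wnt2b held 0.214 to 0.902 CPM in orpk and 0.24 to 0.666 CPM in WT and passed in no comparison. Among the 10 ligands below the filter, Wnt7a had 39 reads in orpk and 5 in WT, while Wnt11 had 6 and 37, Wnt5b 10 and 45, and Wnt9b 1 and 29. Wnt16, Wnt8b, Wnt3 and Wnt2 had 14, 8, 6 and 4 reads in all libraries.

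**Figure D3:**
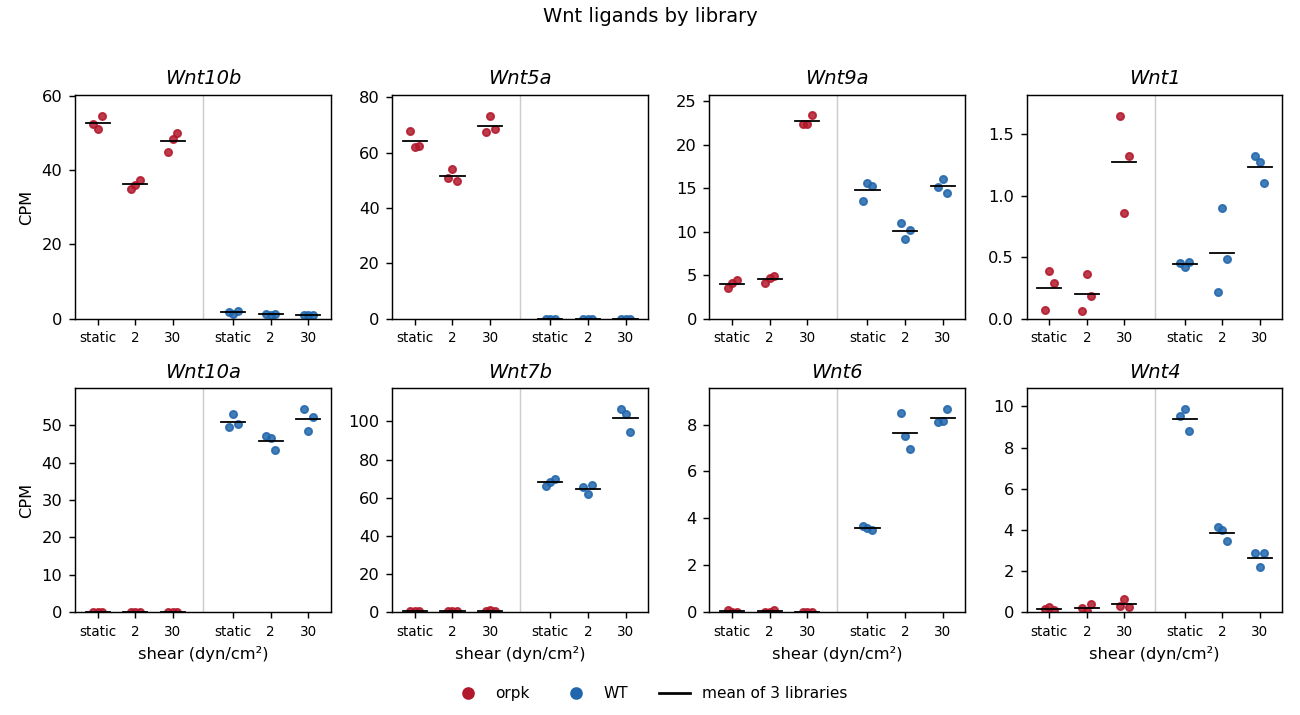
CPM per library (points, 3 per group) for 8 ligand genes in the 6 groups, orpk left of WT and static to 30 dyn/cm² within each, with a separate vertical axis per gene. Wnt10b and Wnt5a are seen in orpk, Wnt10a, Wnt7b, Wnt6 and Wnt4 in WT, and Wnt9a stands at 22.4 to 23.5 CPM in orpk at 30 dyn/cm², above its 9 WT libraries.

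Of 10 Frizzled genes 9 were tested, and a different one led in each genotype. The sum was 153 ± 8.15 CPM per kb in static orpk, 121 ± 0.704 at 2 and 128 ± 2.37 at 30 dyn/cm², against 105 ± 0.523, 96.4 ± 1.04 and 135 ± 0.302 in WT. Fzd2 took 65.8% ± 1.09 of it in static orpk and Fzd6 took 52.3% ± 0.217 in static WT. Fzd2 (ENSMUSG00000050288, chromosome 11, 102604396 to 102608058, plus strand), a receptor of Wnt5a among others, held 397, 363 and 349.6 CPM in static culture, 252, 249 and 259.6 CPM at 2 and 289, 281 and 294 CPM at 30 dyn/cm² in orpk. Its WT libraries held 80.4, 81 and 79.5 CPM in static culture, 68.6, 67.5 and 63.2 CPM at 2 and 84.5, 83.1 and 89.4 CPM at 30 dyn/cm². It was 4.61-fold higher in orpk in static culture and 3.36-fold at 30 dyn/cm² (2.20 ± 0.04 and 1.75 ± 0.04 on the log2 scale, edgeR adjusted p = 9.81e-37 and 3.71e-33), and within orpk it was lower under flow, at -0.54 ± 0.04 for 2 and -0.36 ± 0.04 for 30 dyn/cm² against static (edgeR adjusted p = 7.75e-16 and 5.82e-11).

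Fzd6 (ENSMUSG00000022297, chromosome 15, 39006034 to 39038188, plus strand), known for the planar polarity of hair follicles, held 29.4, 30.9 and 30.7 CPM in static culture, 50.0, 47.6 and 50.7 CPM at 2 and 54.2, 54.6 and 53.6 CPM at 30 dyn/cm² in orpk. In WT the 9 libraries held 265, 264 and 264 CPM in static culture, 235, 240.0 and 236 CPM at 2 and 390.5, 392 and 391 CPM at 30 dyn/cm². The genotypes did not overlap, and orpk over WT stood at -3.12 ± 0.05, -2.26 ± 0.04 and -2.85 ± 0.04 on the log2 scale at static, 2 and 30 dyn/cm² (edgeR adjusted p = 8.69e-43, 5.16e-39 and 1.12e-42). It rose at 30 dyn/cm² over static by 0.83 ± 0.05 in orpk and 0.57 ± 0.03 in WT (edgeR adjusted p = 4.17e-19 and 3.78e-19). Fzd3, its partner in neural tube closure, held 1.28, 1.36 and 1.32 CPM in static culture, 2.38, 2.89 and 3.22 CPM at 2 and 3.0, 3.5 and 3.49 CPM at 30 dyn/cm² in orpk. The WT libraries of Fzd3 held 13.3, 14.8 and 12 CPM in static culture, 15.7, 20.4 and 19.1 CPM at 2 and 23.3, 23.6 and 21.7 CPM at 30 dyn/cm². It too was higher in WT at each shear and rose at 30 dyn/cm² over static in both genotypes, by 1.33 ± 0.24 in orpk and 0.78 ± 0.09 in WT (edgeR adjusted p = 2.25e-06 and 1.53e-10).

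Fzd8 and Fzd1 were, like Fzd2, higher in orpk, and of these only Fzd8 was near 0 in WT. Fzd8, whose extracellular domain is widely used as a trap for Wnts, held 79.5, 70.0 and 74.2 CPM in static culture, 42.1, 49.7 and 42.9 CPM at 2 and 33.5, 35 and 36.5 CPM at 30 dyn/cm² in orpk. The WT libraries of Fzd8 held 0 to 0.272 CPM, and orpk was higher by 9.65 ± 0.75, 7.72 ± 0.45 and 8.42 ± 0.67 on the log2 scale at static, 2 and 30 dyn/cm² (edgeR adjusted p = 5.97e-38, 2.57e-35 and 1.69e-33). The static value ran from 9.02 (without WT static replicate 3) to 10.08 over the alternatives. With flow Fzd8 fell in orpk, at -0.73 ± 0.06 for 2 and -1.09 ± 0.06 for 30 dyn/cm² against static (edgeR adjusted p = 2.61e-14 and 2.90e-19). Fzd1 held 43.1 to 49.4 CPM in orpk with no group far from another. In WT it held 8.03, 8.05 and 8.85 CPM in static culture, 9.62, 10.1 and 9.93 CPM at 2 and 13, 11.6 and 12.9 CPM at 30 dyn/cm². It was higher in orpk by 2.39 ± 0.08 in static culture (edgeR adjusted p = 2.81e-30), and rose in WT at 30 dyn/cm² by 0.58 ± 0.09 over static (edgeR adjusted p = 9.88e-08). Fzd9, a receptor studied in bone and hippocampus, held 0.0661 to 0.30 CPM in orpk. Its WT libraries held 0.326, 0.21 and 0.46 CPM in static culture, 1.63, 1.5 and 1.09 CPM at 2 and 2.46, 1.72 and 2.15 CPM at 30 dyn/cm², so both WT flow groups were above static, by 2.02 ± 0.41 and 2.60 ± 0.40 (edgeR adjusted p = 4.60e-06 and 3.35e-09). Fzd9 was tested through these flow groups alone, the only ones at the filter level, so its rise is not independent of the filter.

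Fzd4 and Fzd5 were both highest at 2 and lowest at 30 dyn/cm² in orpk. Fzd4 (ENSMUSG00000049791, chromosome 7, 89404355 to 89413134, plus strand), the Wnt and Norrin receptor of retinal vessels, held 19.1, 19.8 and 21.4 CPM in static culture, 31.4, 32.8 and 25.8 CPM at 2 and 13.1, 11.4 and 12.1 CPM at 30 dyn/cm² in orpk. Its WT libraries held 9.66, 10.1 and 9.37 CPM in static culture, 7.99, 9.37 and 10.6 CPM at 2 and 8.21, 8.6 and 8.88 CPM at 30 dyn/cm². The 3 orpk groups did not overlap, and orpk changed by 0.58 ± 0.08 at 2 and -0.72 ± 0.10 at 30 dyn/cm² against static (edgeR adjusted p = 4.05e-08 and 1.60e-08), where WT had -0.06 ± 0.11 and -0.18 ± 0.11 (edgeR adjusted p = 0.665 and 0.157). Its difference between the genotypes was 1.05 ± 0.10 in static culture, 1.69 ± 0.09 at 2 and 0.51 ± 0.11 at 30 dyn/cm² (edgeR adjusted p = 5.80e-13, 4.32e-21 and 5.25e-05), and the last did not pass when library totals set the scaling (0.19, adjusted p = 0.0908). Fzd5 (ENSMUSG00000045005, chromosome 1, 64730558 to 64737751, minus strand), needed for yolk sac vessels in the mouse, held 19.2, 20.3 and 18.9 CPM in static culture, 22.7, 27.6 and 25.6 CPM at 2 and 14.2, 13.3 and 12.9 CPM at 30 dyn/cm² in orpk. The WT libraries of Fzd5 held 21, 22.7 and 22.6 CPM in static culture, 22.1, 24.1 and 25.5 CPM at 2 and 27.3, 28.5 and 26.3 CPM at 30 dyn/cm². No orpk library at 30 dyn/cm² reached a static one, and no static WT library reached the WT group at 30: against static, Fzd5 fell in orpk (-0.53 ± 0.09) and rose in WT (0.30 ± 0.07; edgeR adjusted p = 7.37e-07 and 0.000169). Fzd7, close to Fzd1 and Fzd2 in sequence, held 59.5 to 84.9 CPM in orpk and 83.5 to 95.1 CPM in WT with orpk over WT at -0.25 ± 0.05 in static culture (edgeR adjusted p = 1.56e-05). Fzd10 had 1 read.

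Among the co-receptors of β-catenin signalling, orpk had less Lrp5 and more Lrp6. Lrp5 (ENSMUSG00000024913, chromosome 19, 3584828 to 3686564, minus strand) held 80.7, 80.0 and 79.6 CPM in static culture, 89.9, 106 and 94.4 CPM at 2 and 48.4, 48.3 and 51.2 CPM at 30 dyn/cm² in orpk. WT libraries held 384, 354 and 367 CPM in static culture, 191, 209.6 and 211 CPM at 2 and 172, 168 and 172 CPM at 30 dyn/cm². Lrp6 (ENSMUSG00000030201, chromosome 6, 134446476 to 134566965, minus strand) held 277, 277 and 278 CPM in static culture, 288, 299 and 269 CPM at 2 and 197, 208 and 204 CPM at 30 dyn/cm² in orpk. Its WT libraries held 138, 133 and 132 CPM in static culture, 95.4, 106 and 108 CPM at 2 and 105, 105 and 109 CPM at 30 dyn/cm². The genotypes did not overlap for either gene: in static culture orpk over WT was -2.20 ± 0.05 on the log2 scale for Lrp5 and 1.05 ± 0.04 for Lrp6 (edgeR adjusted p = 1.58e-35 and 1.67e-25). Per kilobase, static orpk held 8.23 ± 0.0562 CPM per kb of Lrp5 and 20.3 ± 0.0597 of Lrp6, and static WT 37.8 ± 1.55 and 9.83 ± 0.252, so the more abundant co-receptor transcript was Lrp6 in orpk and Lrp5 in WT.

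The 3 receptors of this class that both genotypes expressed fell at high shear in both. Against static, 30 dyn/cm² changed Lrp5 by -0.70 ± 0.05 in orpk and -1.11 ± 0.04 in WT (edgeR adjusted p = 6.34e-15 and 5.27e-25), and Lrp6 by -0.45 ± 0.04 and -0.34 ± 0.04 (edgeR adjusted p = 4.04e-13 and 4.44e-09). Ryk, an atypical receptor with an inactive kinase domain, changed by -0.43 ± 0.04 in orpk and -0.23 ± 0.04 in WT (edgeR adjusted p = 2.54e-13 and 1.68e-06). For Lrp5 the genotypes went apart at 2 dyn/cm², with 0.27 ± 0.05 in orpk and -0.85 ± 0.04 in WT (edgeR adjusted p = 7.16e-06 and 4.39e-21). Ryk held 126 to 195 CPM in orpk and 119 to 142 CPM in WT and was the most abundant of the class per kilobase in static orpk, at 41.4 ± 1.46 CPM per kb, against 31 ± 0.325 in static WT. Its difference between the genotypes at 30 dyn/cm² turned sign with the scaling, 0.21 ± 0.04 by TMM (edgeR adjusted p = 3.73e-06) and -0.10, adjusted p = 0.0126 by library totals. Ror1 and Ror2, tyrosine-kinase-like receptors of Wnt5a, were orpk genes as Wnt5a was. Ror1 held 9.0 to 11.5 CPM in orpk and 1 read over all WT libraries, and Ror2 held 3.99 to 5.17 CPM in orpk and no read in WT. The orpk level of Ror2 was at least 65.3, 79.6 and 84.9 times that of WT at static, 2 and 30 dyn/cm². Neither passed with flow in orpk, Ror1 with -0.12 ± 0.11 and Ror2 with 0.21 ± 0.15 at 30 dyn/cm² against static (edgeR adjusted p = 0.335 and 0.219).

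R-spondin transcripts were present in orpk and all but absent from WT, and the leading one fell steeply at high shear. Their summed level in orpk was 24 ± 1.77 CPM per kb in static culture, 21.9 ± 0.993 at 2 and 4.34 ± 0.241 at 30 dyn/cm². Rspo3 (ENSMUSG00000019880, chromosome 10, 29452416 to 29535867, minus strand), which in the mouse is needed for vessel formation, held 66.7, 60.3 and 70.3 CPM in static culture, 60.1, 61.3 and 56.7 CPM at 2 and 8.99, 8.43 and 8.53 CPM at 30 dyn/cm² in orpk. The WT groups held 1 read each. At 30 dyn/cm² orpk cells held 7.59-fold less Rspo3 than static ones (-2.92 ± 0.09 on the log2 scale, edgeR adjusted p = 2.47e-30), while the group at 2 dyn/cm² overlapped the static group. Rspo2, the R-spondin of limb and lung, held 11.7, 12.8 and 13.2 CPM in static culture, 13, 13.1 and 11.1 CPM at 2 and 4.79, 3.5 and 4.96 CPM at 30 dyn/cm² in orpk and had 2 reads in all WT libraries. The libraries at 30 dyn/cm² lay below all other orpk libraries (-1.51 ± 0.14 against static, edgeR adjusted p = 5.55e-13). Rspo1, known from ovary development, went the other way at a low level. Its orpk libraries held 0.428, 0.258 and 0.732 CPM in static culture, 0.265, 0.541 and 0.433 CPM at 2 and 1.27, 1.21 and 1.32 CPM at 30 dyn/cm², with no overlap between 30 dyn/cm² and static (1.44 ± 0.39, edgeR adjusted p = 0.000772), and WT had no read. Rspo1 was tested through orpk at 30 dyn/cm² alone, the only group at the filter level, so this rise is not independent of the filter. Rspo4 had 13 reads in all.

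Their receptor Lgr4 (ENSMUSG00000050199, chromosome 2, 109917647 to 110014257, plus strand) was expressed in both genotypes and came together at high shear. In orpk it held 127, 134 and 136 CPM in static culture, 122, 126 and 122 CPM at 2 and 138, 144 and 143 CPM at 30 dyn/cm². The values in WT were 249.9, 216 and 234 CPM in static culture, 204, 205 and 199 CPM at 2 and 143, 144 and 142 CPM at 30 dyn/cm². The WT groups lay apart and fell with shear, at -0.20 ± 0.04 for 2 and -0.71 ± 0.04 for 30 dyn/cm² against static (edgeR adjusted p = 1.53e-05 and 2.99e-19). Orpk was lower than WT in static culture (-0.82 ± 0.04, edgeR adjusted p = 5.64e-22), and at 30 dyn/cm² the difference was -0.01 ± 0.04 with overlapping libraries (edgeR adjusted p = 0.751). Lgr5, a stem cell marker of the gut, had 11 reads in all.

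Of 11 secreted inhibitors 4 were tested, and in orpk all 4 fell at 2 and at 30 dyn/cm² against static, where 31.1% and 33.3% of all genes fell. Dkk2 and Sfrp2 reached the filter level in orpk alone, and Sfrp2 only in static culture and at 2 dyn/cm². The count of falls thus describes the table and is not read as an excess. Their summed level in orpk was 58.6 ± 0.657 CPM per kb in static culture, 31.6 ± 3.16 at 2 and 19.7 ± 0.95 at 30 dyn/cm², against 1.07 ± 0.0921, 1.25 ± 0.188 and 1.62 ± 0.151 in WT. The fibroblast markers also stood lower under flow in orpk. They summed to 39974 to 40825 CPM in static culture, 25880 to 30545 at 2 and 29243 to 31182 at 30 dyn/cm². Col1a2, Col1a1 and Col3a1 stood highest in each orpk group and weigh most in this sum. Against static 8 of 10 markers fell and 1 rose at 2 dyn/cm², and 7 fell and 2 rose at 30 dyn/cm². Between 2 and 30 dyn/cm² 5 of the 10 fell further and 4 went up, and the middle value was -0.35 on the log2 scale. The part of the fibroblast markers in the results for the inhibitors or the R-spondins was not tested. Dkk3 (ENSMUSG00000030772, chromosome 7, 112116017 to 112159057, minus strand), a divergent Dickkopf whose action on Wnt signals is debated, made up 89.3% ± 0.609 of the static orpk sum. Its orpk libraries held 176, 178 and 173 CPM in static culture, 92.9, 108 and 88.6 CPM at 2 and 64.2, 64.5 and 60.4 CPM at 30 dyn/cm². In WT the 9 libraries held 0.522, 0.35 and 0.345 CPM in static culture, 1.14, 1.68 and 1.19 CPM at 2 and 1.62, 1.55 and 1.05 CPM at 30 dyn/cm². The orpk groups stepped down without overlap and the WT flow groups lay above the static one. Against static, 30 dyn/cm² changed Dkk3 by -1.48 ± 0.05 in orpk and 1.77 ± 0.40 in WT (edgeR adjusted p = 7.38e-26 and 3.79e-05), and in static culture orpk exceeded WT by 8.74 ± 0.36 (edgeR adjusted p = 2.32e-41).

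Sfrp2 (ENSMUSG00000027996, chromosome 3, 83766321 to 83774316, plus strand), a secreted Frizzled-related protein that binds Wnts, showed the steepest fall with flow of the tested members in orpk. Its orpk libraries held 9.2, 10.3 and 10.7 CPM in static culture, 3.77, 4.75 and 4.7 CPM at 2 and 0.375, 0.714 and 0.155 CPM at 30 dyn/cm². The WT groups held 1, 1 and 0 reads. The orpk groups did not overlap, and against static Sfrp2 stood at -1.18 ± 0.14 at 2 and -4.55 ± 0.38 at 30 dyn/cm² (edgeR adjusted p = 9.58e-10 and 7.69e-20). The value at 30 dyn/cm² ran from -5.19 (without orpk 30 dyn/cm² replicate 2) to -4.18 over the alternatives. Dkk2 (ENSMUSG00000028031, chromosome 3, 132085292 to 132180304, plus strand), which binds Lrp5 and Lrp6 and has TATAA at the same distance from its start as Wnt9a in the stretches shown, held 4.28, 4.84 and 4.76 CPM in static culture, 2.51, 2.41 and 1.92 CPM at 2 and 3.22, 2.36 and 1.71 CPM at 30 dyn/cm² in orpk. There was no Dkk2 read in WT. Both flow groups lay below static without overlap, at -1.02 ± 0.19 for 2 and -0.93 ± 0.19 for 30 dyn/cm² (edgeR adjusted p = 1.10e-05 and 5.38e-05). In static culture the level of orpk over WT was at least 72.6-fold for Dkk2 and 473-fold (95% exact counting interval 84.4 to 18712) for Sfrp2.

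Notum (ENSMUSG00000042988, chromosome 11, 120653788 to 120661175, minus strand), an enzyme that removes the lipid from Wnts, was the tested inhibitor found at a higher level in WT. It held 0.856, 0.452 and 0.366 CPM in static culture, 0.265, 0.18 and 0.248 CPM at 2 and 0.0749, 0.214 and 0.155 CPM at 30 dyn/cm² in orpk. In WT it held 1.7, 1.96 and 2.18 CPM in static culture, 1.2, 1.32 and 1.68 CPM at 2 and 1.98, 2.33 and 2.04 CPM at 30 dyn/cm². All WT libraries were above all orpk libraries, and orpk over WT stood at -1.80 ± 0.33, -2.57 ± 0.47 and -3.76 ± 0.60 at static, 2 and 30 dyn/cm² (edgeR adjusted p = 3.76e-07, 2.90e-08 and 9.78e-12). Its falls with flow in orpk, -1.25 ± 0.53 at 2 and -1.85 ± 0.66 at 30 dyn/cm² (edgeR adjusted p = 0.0216 and 0.00314), rested on the static orpk replicate 1. Without that library edgeR gave -0.82, adjusted p = 0.230 at 2 and -1.42, adjusted p = 0.0525 at 30 dyn/cm², and the fall at 2 dyn/cm² was also lost without orpk replicate 2 there (edgeR -1.10, adjusted p = 0.0739). Of the 7 inhibitors below the filter, Wif1 had 2 reads in orpk and 63 in WT and Sfrp5 7 and 19, while Sfrp1 had 17 and 0 and Frzb 13 and 0. Sfrp4 had 9 reads in all.

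**Figure D4:**
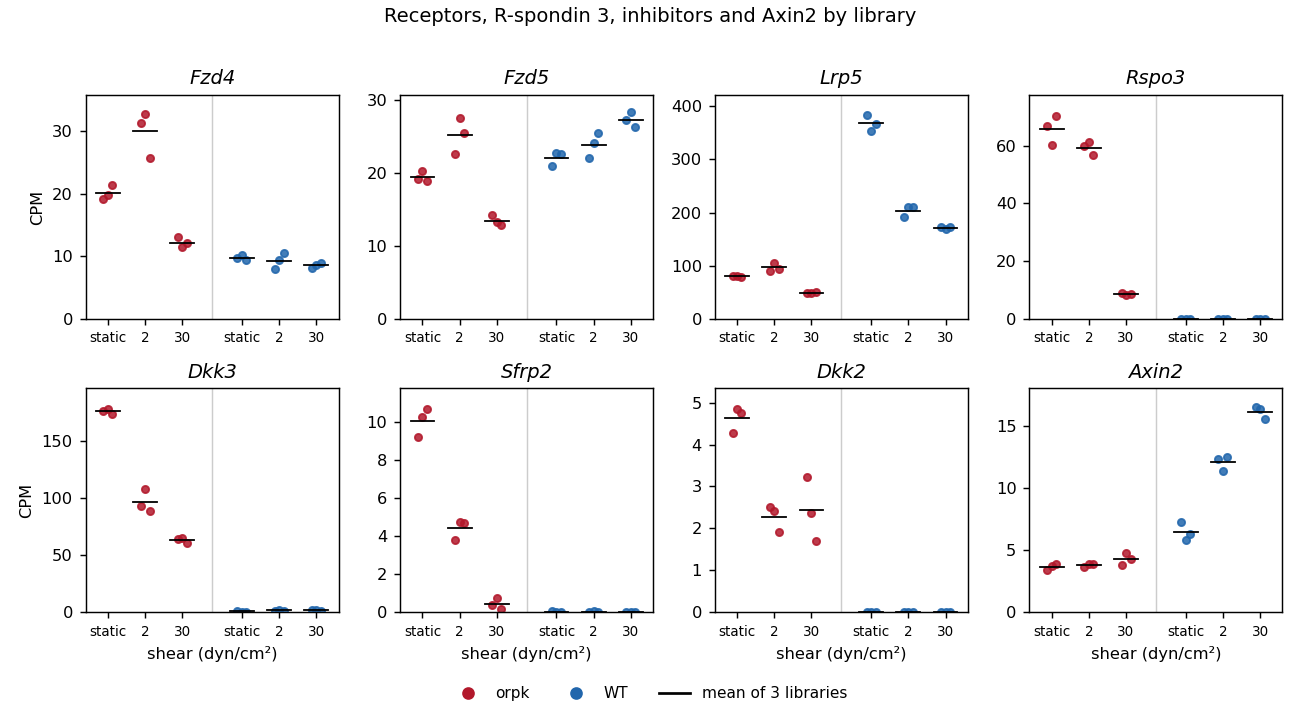
CPM per library (points, 3 per group) for 8 genes (receptors, an R-spondin, inhibitors and Axin2) in the 6 groups, orpk left of WT and static to 30 dyn/cm² within each, with a separate vertical axis per gene. Rspo3, Dkk3, Sfrp2 and Dkk2 are highest in static orpk, Lrp5 in static WT, and Axin2 in WT at 30 dyn/cm² with 15.5 to 16.5 CPM.

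Axin2 (ENSMUSG00000000142, chromosome 11, 108920349 to 108950783, plus strand) encodes a scaffold of the complex that destroys β-catenin and is itself switched on by β-catenin, for which it is widely read as a gauge of the pathway. In orpk it held 3.42, 3.68 and 3.88 CPM in static culture, 3.64, 3.85 and 3.84 CPM at 2 and 3.82, 4.79 and 4.26 CPM at 30 dyn/cm². Its WT libraries held 7.25, 5.81 and 6.32 CPM in static culture, 12.4, 11.4 and 12.5 CPM at 2 and 16.5, 16.4 and 15.5 CPM at 30 dyn/cm². All WT libraries were above all orpk libraries, and WT rose with shear without overlap of its groups, by 0.90 ± 0.10 at 2 and 1.32 ± 0.10 at 30 dyn/cm² against static (edgeR adjusted p = 1.65e-10 and 5.97e-16). High shear in orpk left it short of the threshold at 0.23 ± 0.16 (edgeR adjusted p = 0.184). Orpk over WT stood at -0.82 ± 0.14 in static culture, -1.68 ± 0.12 at 2 and -1.91 ± 0.12 at 30 dyn/cm² (edgeR adjusted p = 4.02e-07, 1.01e-17 and 4.39e-20). The Axin2 stretch shown above holds neither TATAA nor the TCF and LEF letters searched.

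Whether flow acted differently in the genotypes was tested by the difference of the changes, orpk minus WT. At 2 dyn/cm² 14 of 32 members passed, 7 in each direction (52.6% of all genes, 27.1% higher and 25.4% lower), and 12 without the pair of libraries that stood apart. At 30 dyn/cm² 15 passed, 6 higher and 9 lower (57.5% of all genes, 30.6% higher and 26.9% lower). Both contrasts use the static libraries, so their values are not independent. The difference at 30 dyn/cm² was 2.46 ± 0.15 for Wnt9a and 0.81 ± 0.06 for Lgr4 (edgeR adjusted p = 5.99e-19 and 1.70e-15), and -3.25 ± 0.41 for Dkk3, -1.09 ± 0.19 for Axin2 and -0.84 ± 0.11 for Fzd5 (edgeR adjusted p = 2.12e-10, 1.62e-06 and 1.91e-08). It was, at 2 dyn/cm², 1.13 ± 0.06 for Lrp5, 0.86 ± 0.06 for Fzd6 and 0.64 ± 0.14 for Fzd4 (edgeR adjusted p = 2.05e-18, 3.26e-16 and 0.000116). For members with 3 or fewer reads in a group, such as Wnt5a, Wnt6, Wnt10a and the R-spondins, no difference of changes is given.

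**Figure D5:**
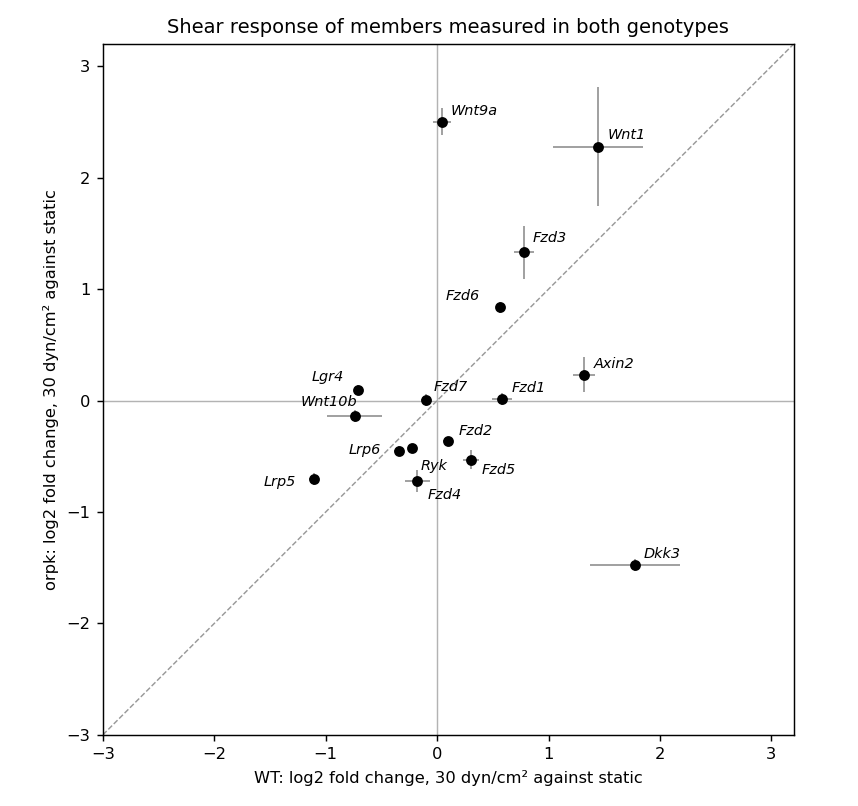
Log2 fold change at 30 dyn/cm² against static in orpk (vertical axis) and WT (horizontal axis) for the 16 members at the filter level in both genotypes, with bars of 1 SE, and a dashed line where both are equal. Wnt9a lies far above the line and Dkk3, Axin2 and Fzd5 below it, while Lrp5, Lrp6 and Ryk lie below 0 in both. Wnt1 reached the filter level only at 30 dyn/cm², and Dkk3 reached it in WT only under flow.

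Other genes of the pathway were counted by list. Of 28 genes of Wnt secretion, β-catenin destruction and TCF activity, all tested, 13 were higher and 10 lower in static orpk than in static WT, where 44.4% and 43.4% of all genes were (median log2 fold change 0.05, against 0.01 over all genes). Lef1, a nuclear partner of β-catenin, held 0.928 ± 0.0871 CPM in static orpk against 19.1 ± 1.48 CPM in static WT (-4.36 ± 0.23, edgeR adjusted p = 1.24e-27), and Tcf7, another, 1.61 ± 0.431 against 14.7 ± 1.62 CPM (-3.17 ± 0.19, edgeR adjusted p = 3.00e-22). High shear against static saw 9 of the 28 rise and 13 fall in orpk (36.5% and 33.3% of all genes), and 5 rise and 17 fall in WT (34.1% and 32.7% of all genes). Lef1 and Tcf7 were among those that rose in WT, with 1.04 ± 0.07 and 0.79 ± 0.08 (edgeR adjusted p = 3.79e-17 and 6.35e-11), and Tcf7 rose in orpk with 1.29 ± 0.22 (edgeR adjusted p = 9.30e-07). Porcn, which attaches the lipid to Wnts, fell in WT at 30 dyn/cm² (-1.34 ± 0.09, edgeR adjusted p = 1.77e-16).

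Of 24 listed feedback and target genes of β-catenin 18 were tested, 11 higher and 5 lower in static orpk than in static WT (44.4% and 43.4% of all genes), while Axin2 was lower in orpk. For 30 dyn/cm² against static 8 rose and 7 fell in orpk (36.5% and 33.3% of all genes), and 7 rose and 5 fell in WT (34.1% and 32.7%). Ccn4, a secreted matrix protein named for its induction by Wnt, rose in both, by 2.55 ± 0.07 in orpk and 1.52 ± 0.07 in WT (edgeR adjusted p = 4.62e-14 and 4.86e-11). Nkd1, a feedback inhibitor, held 4.22 ± 0.337 CPM in static orpk and had no read in static WT. Of 28 genes of planar polarity and other β-catenin-independent branches, 16 were higher and 11 lower in static orpk (44.4% and 43.4% of all genes). In static culture the cadherin Fat4 held 247 ± 14.8 CPM in orpk and 0.0834 ± 0.0274 CPM in WT, and the seven-pass cadherin Celsr2 0.445 ± 0.106 and 329 ± 2.22 CPM. Of 20 other surface and secreted regulators 15 were tested, and all 15 were higher in static orpk (median 2.03), where 44.4% of all genes were. At 2 dyn/cm² 14 were higher and 1 lower in orpk (44.6% and 42.9% of all genes), and at 30 dyn/cm² 13 and 1 (44.9% and 42.0%). The list was chosen with earlier results known, and a gene high in orpk alone could pass the filter. These counts thus describe the list and are not read as an excess. Among the 15, Serpinf1, the secreted anti-angiogenic factor PEDF, held 529 ± 11.6 CPM in static orpk and 1.02 ± 0.138 CPM in static WT (9.01 ± 0.26, edgeR adjusted p = 2.82e-30). Tcf7, Lef1 and Apcdd1 are each in a pair of these lists.

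For 9 members (Fzd5, Fzd6, Rspo3, Wnt5a, Wnt7b, Wnt11, Sfrp2, Notum and Axin2) the annotation, GENCODE M21, has an exon of another gene on the opposite strand. None of these partners is in the count table, and whether counting used the strand is not given in the sources used here, so reads of the partner could be included.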

How the data were processed

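RNA from 18 libraries was read as single-end 50-nt reads of stranded mRNA libraries, per the labels' protocols. The authors deposited 1 table of raw counts per gene. Per the submitters' processing notes the tools were CASAVA 1.8.2, STAR 2.4 and featureCounts 1.4.6 with GRCm38, and the strand setting of the counting is not given in the sources used here. Symbols, lengths and positions came from GENCODE M21, which named 21583 of 21647 Ensembl IDs, and 3937 genes had no read.

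Counts were fitted with edgeR 4.0.16 (R 4.3.3, limma 3.58.1) over all 18 libraries with 1 mean per group, TMM scaling, filterByExpr (minimum count 10, or 0.638 CPM in 3 libraries) and the robust quasi-likelihood test with 12 residual degrees of freedom. A log2 fold change is given ± its SE, which is the Wald error from the fitted quasi-likelihood variance of each group mean, never set below the counting error. Calls are at a Benjamini-Hochberg adjusted p of 0.05 over the 13058 genes tested, in 11 comparisons. Where a group had 0 reads, a fold was set against 3 reads for that group, and where it had 1 to 3, a ratio with a 95% exact interval is given. Levels were compared between genes only per kb of merged exons. The steps were tested on simulated data.

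Members reaching 1 CPM in a group and passing with an absolute log2 fold change of 1 or more were named with values in full, the others by range. Up to 4 genes per other list, those with the greatest changes, could be named. The members and lists were chosen with earlier results of these data known. Alternatives were DESeq2 1.42.0, RLE size factors, library totals, no filter, the compared groups alone, a replicate block, each library left out, and, chosen after seeing the data, the pair of libraries that stand apart left out.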

Additional observations from a re-analysis of the deposited data

Results flagged for a closer look

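The response to flow differed between the genotypes for 19 members, in 29 tests of the difference of changes, orpk minus WT, on the log2 scale against static (edgeR, Benjamini-Hochberg adjusted p under 0.05 over all tested genes). Of all tested genes 52.6% passed at 2 and 57.5% at 30 dyn/cm².

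Among ligands the difference was 0.76 at 2 and 2.46 at 30 dyn/cm² for Wnt9a, and at 30 dyn/cm² 3.08 for Wnt4 and 0.60 for Wnt10b. Wnt4 held 7 to 16 reads in each orpk group, so its orpk arm rests on few reads. The Wnt10b difference was lost without WT 30 dyn/cm² replicate 1, WT 30 dyn/cm² replicate 2, WT static replicate 1 or WT static replicate 3 (0.44 to 0.59, edgeR adjusted p of at most 0.182), and also with library totals as the scaling (edgeR 0.50, adjusted p = 0.0698) and by DESeq2 (0.58, adjusted p = 0.0582).

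Frizzled receptors gave the most. Above 0 at 2 dyn/cm² were Fzd3 (0.64), Fzd4 (0.64), Fzd5 (0.27) and Fzd6 (0.86), and below 0 were Fzd2 (-0.27), Fzd7 (-0.28), Fzd8 (-1.93) and Fzd9 (-2.16). At 30 dyn/cm² Fzd6 (0.27) was above 0, and Fzd1 (-0.57), Fzd2 (-0.46), Fzd4 (-0.54), Fzd5 (-0.84) and Fzd9 (-2.71) were below 0. Fzd4 thus passed with opposite signs at the 2 shear levels. At 2 dyn/cm² the Fzd3 difference was lost without orpk 2 dyn/cm² replicate 2, orpk 2 dyn/cm² replicate 3, orpk static replicate 1, orpk static replicate 2, orpk static replicate 3, WT 2 dyn/cm² replicate 1 or WT static replicate 2 (0.53 to 0.66, edgeR adjusted p of at most 0.0985), and without the pair of libraries that stood apart (edgeR 0.52, adjusted p = 0.0858). The Fzd5 difference was lost without orpk 2 dyn/cm² replicate 2, orpk static replicate 3, WT 2 dyn/cm² replicate 1, WT static replicate 2 or WT static replicate 3 (0.20 to 0.25, edgeR adjusted p of at most 0.107), without the pair that stood apart (edgeR 0.15, adjusted p = 0.255) and by DESeq2 (0.27, adjusted p = 0.0750). For Fzd8, with 4 to 11 reads in each WT group, it was lost without WT 2 dyn/cm² replicate 1 or WT static replicate 3 (-1.67 to -1.31, edgeR adjusted p of at most 0.170) and without the pair that stood apart (edgeR -1.75, adjusted p = 0.0944). For Fzd9, with 6 or 7 reads in each orpk group, it was lost without orpk 2 dyn/cm² replicate 1, orpk 2 dyn/cm² replicate 3, orpk static replicate 1, orpk static replicate 2, WT 2 dyn/cm² replicate 1, WT static replicate 1 or WT static replicate 2 (-2.24 to -1.61, edgeR adjusted p of at most 0.261) and by DESeq2 (-2.21, adjusted p = 0.0517). The Fzd9 difference at 30 dyn/cm² was lost without orpk static replicate 2 (-2.17, edgeR adjusted p = 0.129), and came to -3.65 without orpk 30 dyn/cm² replicate 1.

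Co-receptors and alternative receptors gave 1.13 at 2 and 0.41 at 30 dyn/cm² for Lrp5, 0.42 at 2 dyn/cm² for Lrp6, and -0.42 and -0.20 for Ryk. Lgr4 gave 0.81 at 30 dyn/cm². The inhibitor Dkk3 gave -2.56 at 2 and -3.25 at 30 dyn/cm², and its WT arm held at most 1.68 CPM. Notum gave -1.96 at 30 dyn/cm², which was lost without orpk static replicate 1 (-1.53, edgeR adjusted p = 0.0527). The feedback gene Axin2 gave -0.86 at 2 and -1.09 at 30 dyn/cm².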

How the results depend on the processing

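Of 222 results of tested members that passed the threshold, 36 lost it under at least 1 of the alternatives, in 129 of 2944 recomputed values, and 81 of these 129 came from leaving out 1 library. A pair changed sign, both with library totals as the scaling: Lgr4 in orpk at 2 dyn/cm² against static gave 0.0017 on the log2 scale, against -0.10 by TMM, and Ryk in orpk against WT at 30 dyn/cm² gave -0.10, against 0.21. The counts of members called stayed within 1.5 times under every alternative run. With 1 library left out they ran from 28 to 29 for orpk against WT at each shear, 16 to 17, 19 to 21 and 18 to 20 within orpk for 2 against static, 30 against static and 30 against 2 dyn/cm², 14 to 16, 15 to 17 and 12 to 14 within WT in the same order, and 10 to 14 and 14 to 16 for the differences of changes at 2 and 30 dyn/cm². The scaling also moved the median gene by 0.11 for WT at 2 dyn/cm² against static and by -0.12 for orpk at 30 against 2 dyn/cm². Replicate numbers did not pair the libraries: over 45 same-numbered pairs the correlation of deviations ran from -0.052 to 0.055. A replicate block lost no call and gave the same counts, except 16 in place of 15 for the difference of changes at 30 dyn/cm². Depth limits the members and groups under about 1 CPM, where a library holds few or no reads. Among these are Wnt1, Wnt2b, Wnt4, Wnt7b, Fzd9 and Notum in orpk, and the 20 members below the filter. Others are Rspo1 in orpk in static culture and at 2 dyn/cm², Sfrp2 in orpk at 30 dyn/cm², Fzd8 in WT and Dkk3 in static WT. A count of 0 at such levels does not show that the gene is silent.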
